A study of Mus musculus with 14 samples.

Results

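The myeloid growth factors and receptors described here are 5 genes, the ligands *Csf1* and *Il34* and the receptor genes *Csf1r*, *Csf2ra* and *Csf2rb*. They were matched by symbol, and all 5 were found among the 28316 genes of the retina table and the 26528 genes of the brain table. snRNAseq had been carried out on nuclei of whole retina, with 1 control and 11 CKO libraries, and on nuclei of vascular fragments enriched from brain, with 1 control and 1 CKO library. CKO mice were *Cdh5CreER;Tgfbr1 CKO/-*: they carried a conditional and a null allele of the TGF-beta receptor gene *Tgfbr1*, and a CreER recombinase that is driven by the *Cdh5* promoter, and so acts in endothelial cells (ECs), once 4-hydroxytamoxifen (4HT) is given. 4HT was given between postnatal day (P)3 and P5, and the tissue was from P14 mice. Control mice are labelled wild type; the study's controls with a wild-type phenotype mostly carried *Cdh5CreER* and 1 conditional allele of *Tgfbr1* or *Tgfbr2*, and the genotype and 4HT treatment of the mice behind these control libraries are not stated. Each brain library pooled the vascular fragments of 2 brains.

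CSF1 and IL-34 are secreted ligands that share CSF1R, a receptor tyrosine kinase on which microglia and most tissue macrophages depend for their survival. In the central nervous system, IL-34 is known mainly as a product of neurons and CSF1 as a product of glia and other cells. *Csf2ra* encodes the chain of the GM-CSF receptor that binds its ligand, and *Csf2rb* the signaling chain that the GM-CSF, IL-3 and IL-5 receptors of myeloid cells have in common.

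The question asked of these genes was where the ligands are made, where the receptors lie, and how control and CKO libraries compare. Levels are given as UMIs of a gene per 1000000 UMIs (CPM) of all nuclei with the same cell type label in a library. Intervals are exact Poisson 95% intervals and cover counting error only. In the GRCm39 annotation, *Csf1* lies on chromosome 3 (107648364 to 107667806, minus strand), *Il34* on chromosome 8 (111423928 to 111532584, minus strand), *Csf1r* on chromosome 18, *Csf2ra* on chromosome 19 (61212395 to 61216892, minus strand) and *Csf2rb* on chromosome 15 (78209952 to 78238047, plus strand). *Il34* overlaps *Vac14* and *Mtss2* on the opposite strand, the end of *Csf1r* overlaps *Hmgxb3*, and *Csf1* and *Csf2ra* lie within the long noncoding RNA genes *Gm40121* and *Gm56644*. The sources used here do not say whether counting used strand, and without it the UMIs of such pairs cannot be told apart. In brain pericytes, the label with the most *Il34* per UMI, *Vac14* had 0 UMIs and *Il34* was at 1511 CPM. In retina, *Vac14* was found in every label, at 15.1 to 37.1 CPM. *Csf2rb* and its neighbor *Csf2rb2* have 18.4% of the 50-base windows of the *Csf2rb* transcript in common, but 0% of the windows in its last 500 bases, next to which a 3′ library reads.

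The control retina library had 11513 nuclei and 30989702 UMIs, and CKO retina libraries had 104, 4210 and 18862 nuclei (lowest, median and highest) with 90449 to 55803724 UMIs. CKO replicate 4 stood apart, with 104 nuclei, of which 65 were labelled as immune cells, and a median of 613 UMIs per nucleus. In replicates 4 and 5 the authors had removed clusters with multiple nuclei by hand, and how this changed the shares of cell types in these libraries was not tested. The main comparisons of control and CKO libraries are therefore given with and without replicate 4. Levels pooled or averaged over libraries include it unless stated. The brain libraries had 16649 nuclei and 49798325 UMIs (control) and 14675 nuclei and 31033373 UMIs (CKO). In retina, 20 of 77676 nuclei shared their barcode sequence with a nucleus of another library, as did 4 of 31324 brain nuclei.

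*Tgfbr1*, the targeted gene, was at 89.0 CPM in the control retina (85.7 to 92.4), and at 71.4, 79.4 and 365 CPM in CKO retinas (lowest, median and highest). The highest value was that of CKO replicate 4, from 33 UMIs, and the other 10 CKO libraries, with a highest value of 87.0 CPM, all lay below the control. In brain ECs, *Tgfbr1* was at 69.1 CPM in the control and 62.9 CPM in the CKO library, a ratio of 0.910 (0.792 to 1.05). Counts per gene from the 3′ end do not separate transcripts of a deleted allele from intact ones, and ECs are not among the retinal cell type labels, so the deletion is not tested by these levels. Sex-linked genes also differed between libraries: *Xist*, expressed from the inactive X chromosome of females, was at 6779 CPM in the control retina, at 5577 to 6823 CPM in CKO replicates 1, 2, 4 and 7, and at no more than 12.9 CPM in the other CKO retinas. The brain control library had 1963 CPM of *Xist* and 189 CPM of Y-linked genes, and the brain CKO library 1.29 CPM and 421 CPM. Sex and genotype therefore cannot be told apart between the brain libraries.

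Among retinal labels, *Csf1* was highest in astrocytes and immune cells, and *Csf1r* and *Csf2rb* were found mainly in immune cells. Over all 12 retina libraries together, *Csf1* (602 UMIs) was at 54.7 CPM in astrocytes (41.3 to 71.0), 45.0 CPM in immune cells (37.3 to 53.8), 14.8 CPM in horizontal cells and 12.1 CPM in Müller glia. Müller glia held the largest share of its UMIs, 28.7%. Retinal ganglion cells were at 2.30 CPM and each of the other 6 labels below 1 CPM.

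Over libraries with at least 20000 UMIs of the label, the mean level of *Csf1* was 49.0 ± 35.1 CPM in astrocytes (SD, n = 10 libraries), 42.7 ± 29.5 CPM in immune cells (n = 12), 14.7 ± 6.76 CPM in horizontal cells and 11.3 ± 4.33 CPM in Müller glia (both n = 11). Neighbors in this order were compared within libraries by a two-sided exact sign-flip permutation test. Its p-values had Benjamini-Hochberg adjustment over the neighbor pairs of a gene. For each gene the order was taken from the same levels that were tested, so the direction of a difference was largely set in advance. These p-values thus describe how steady a difference was over libraries, and are not independent support for the order. Immune cells were above horizontal cells in 11 of 11 libraries (mean difference 31.9 CPM, adjusted p = 0.00488), and Müller glia were above retinal ganglion cells in 11 of 11 (8.95 CPM, adjusted p = 0.00488). Astrocytes and immune cells did not differ beyond their spread (astrocytes higher in 6 of 10 libraries, adjusted p = 0.875 in the exact test), nor did horizontal cells and Müller glia (8 of 11, adjusted p = 0.149).

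*Il34* (853 UMIs in retina) had another distribution, with astrocytes followed by neurons of the inner retina. It was at 29.3 CPM in astrocytes (19.8 to 41.8, from 30 UMIs), 13.1 CPM in retinal ganglion cells and 8.35 CPM in GABAergic amacrine cells, and these neurons held 29.3% and 41.3% of its UMIs. Immune cells had 5 UMIs of *Il34*, or 1.88 CPM. Mean levels over libraries were 26.3 ± 15.8 CPM in astrocytes (n = 10), 11.7 ± 4.53 CPM in retinal ganglion cells (n = 12) and 8.16 ± 2.38 CPM in GABAergic amacrine cells (n = 11). Retinal ganglion cells were above GABAergic amacrine cells in 10 of 11 libraries, but 0 of the 10 neighbor pairs passed the test, with adjusted p = 0.0684 for this pair and 0.146 for astrocytes against ganglion cells.

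*Csf1r*, the receptor of both ligands, lay mostly in immune cells, which held 73.4% of its 861 retinal UMIs and 1.04% of all retinal UMIs. It was at 237 CPM in immune cells (218.9 to 256) and at 1.94 CPM in the next label, retinal ganglion cells. The difference was in the same direction in 12 of 12 libraries (mean 309 CPM, adjusted p = 0.00488 in the exact sign-flip test), and 0 of the other 9 neighbor pairs passed. Without CKO replicates 4 and 5 its mean was 226 CPM, in the same direction in 10 of 10 libraries (adjusted p = 0.0195 in the exact sign-flip test). Astrocytes had the highest pooled level of both ligands, though the test did not separate them from the next label for either. They had 0 UMIs of *Csf1r*, which allows up to 3.60 CPM.

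The GM-CSF receptor genes differed from each other in their distribution. *Csf2rb* (230 UMIs) was at 52.1 CPM in immune cells, with 60.4% of its UMIs, and at 0.776 CPM in cone bipolar cells, the next label (immune cells higher in 11 of 11 libraries, adjusted p = 0.00977 in the exact test). *Csf2ra* (5994 UMIs) was also highest in immune cells, at 107 CPM (94.5 to 120), but these held only 4.74% of its UMIs. Ganglion cells, Müller glia, both kinds of amacrine and bipolar cells, cones and horizontal cells were at 21.9 to 34.5 CPM, and rods at 8.53 CPM. For *Csf2ra*, immune cells were above retinal ganglion cells in 12 of 12 libraries (64.6 CPM, adjusted p = 0.00488 in the exact test) and horizontal cells above rods in 10 of 11 (10.9 CPM, adjusted p = 0.0146), and the other 8 neighbor pairs did not pass. With CKO libraries only, 1 of 10 pairs of *Csf2ra* passed, immune over ganglion cells (adjusted p = 0.00977 in the exact test), and the difference between horizontal cells and rods was not past the threshold.

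**Figure D1:**
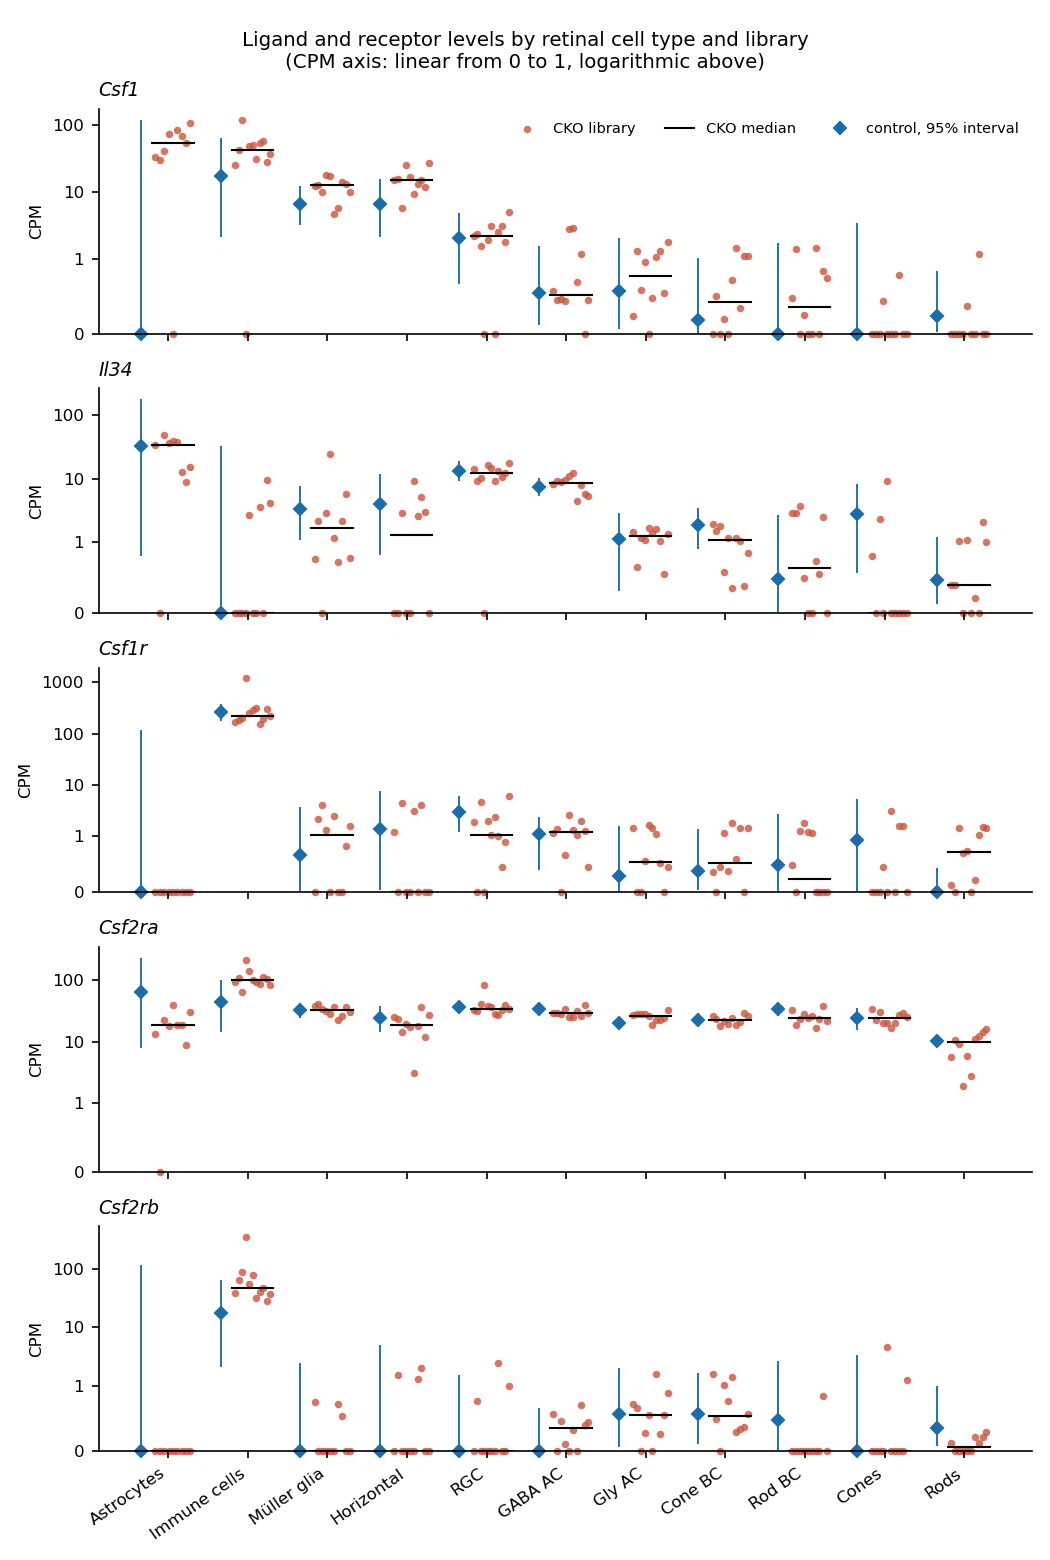
Level of each gene by retinal cell type label, in CPM on an axis that is linear near 0 and logarithmic above; diamonds are the control library with its exact Poisson 95% interval, points are CKO libraries and bars their median. *Csf1r* and *Csf2rb* are high in immune cells and low in all other labels, while *Csf2ra* is found in every label.

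In whole retina libraries, *Csf1*, *Csf1r* and *Csf2rb* were at their lowest, or nearly so, in the control. In such sums, fewer cells of a type and less RNA per cell cannot be told apart. *Csf1* was at 0.968 CPM in the control and at 0, 2.51 and 3.27 CPM in CKO libraries (lowest, median and highest). CKO replicate 4, with 0 UMIs, which allows up to 40.8 CPM, was the only CKO library below the control, and 10 of 10 were above it without this replicate (1.57 to 3.27 CPM). *Csf1r* was at 1.61 CPM in the control and at 1.75, 3.26 and 575 CPM in CKO libraries, and at 1.75 to 4.18 CPM without replicate 4. *Csf2rb* was at 0.355 CPM in the control, from 11 UMIs, and at 0.487, 0.933 and 166 CPM in CKO libraries, or 0.487 to 1.196 CPM without replicate 4.

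For *Csf1r* and *Csf2rb* the control thus lay below all 11 CKO libraries, as it did for 3.77% of the 17303 genes with at least 200 UMIs, and it lay above all 11 for 0 of the 5 genes and 3.39% of all genes. Without replicate 4 the control was below all 10 CKO libraries for *Csf1*, *Csf1r* and *Csf2rb* (7.85% of all genes) and above all 10 for 0 of the 5 genes (4.36%). The result for *Csf1r* depends on how nuclei are weighted: with cell type labels weighted equally, 4 of 11 CKO libraries were above the control (24.6 CPM in the control, 14.1, 21.5 and 201 CPM in CKO libraries), and for *Csf2rb* 11 of 11. In nuclei with at least 1000 UMIs, 10 of 11 were above the control for each of *Csf1r* and *Csf2rb*. The labels do not say that each library is a separate animal, so p-values measure the spread between these libraries. With a single control library, the two-sided exact permutation test cannot give a p below 0.0833 (0.0909 without replicate 4). It gave p = 0.167 for each of these 3 genes, with CKO means higher than the control by 1.31 CPM for *Csf1*, 53.6 CPM for *Csf1r* and 15.5 CPM for *Csf2rb*. Without replicate 4 it gave p = 0.0909, the smallest possible, with mean differences of 1.54, 1.61 and 0.529 CPM. In batch 1, the only batch with a control library, 3 of 3 CKO libraries were above the control for each of the 3 genes, at 1.75 to 2.51 CPM for *Csf1*, 1.75 to 3.26 CPM for *Csf1r* and 0.836 to 1.02 CPM for *Csf2rb*; batches 2 and 3 have CKO libraries only.

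With nuclei labelled immune left out, the control and CKO values of both receptor genes overlapped. *Csf1r* was then at 0.648 CPM in the control and at 0, 0.908 and 1.38 CPM in CKO libraries, 8 of 11 of them above the control, and *Csf2rb* at 0.291 CPM in the control and 0, 0.337 and 0.633 CPM in CKO libraries, again 8 of 11. *Csf1* stayed above the control in 10 of 11, at 0.907 CPM in the control against 0, 2.02 and 2.79 CPM. Nuclei labelled immune were 0.252% of the control nuclei (29 nuclei) and 0.50%, 0.852% and 62.5% of CKO nuclei (17, 38 and 229 nuclei as lowest, median and highest counts). The control share was thus below that of all 11 CKO libraries, and the highest share without replicate 4 was 1.21%. How much of the whole-library levels of the receptor genes follows from this share was not tested.

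The other two genes showed overlapping groups. *Il34* was at 3.36 CPM in the control and at 0, 3.22 and 5.82 CPM in CKO retinas, 4 of 11 above the control (p = 0.75, exact permutation test). *Csf2ra* was at 23.4 CPM in the control and at 20.3, 22.9 and 133 CPM in CKO retinas, 5 of 11 above (p = 0.667, exact permutation test). The mean difference between CKO and control was -0.222 CPM for *Il34* and 9.77 CPM for *Csf2ra*, and without replicate 4 both signs turned, to 0.0915 and -0.177 CPM.

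Within cell types, ligand levels in most CKO libraries lay above the control for *Csf1*, though few UMIs stand behind the control values. *Csf1* in Müller glia was at 6.62 CPM in the control (3.17 to 12.2, from 10 UMIs) and at 4.75, 12.5 and 17.7 CPM in 10 CKO libraries, 8 of them above the control. In horizontal cells it was at 6.68 CPM (2.17 to 15.6, from 5 UMIs) and at 5.72, 15.2 and 27.0 CPM, 9 of 10 above. In immune cells it was at 17.5 CPM, from 2 UMIs, and at 0, 42.5 and 120 CPM, 10 of 11 above. The control and CKO values overlapped in all 3 types, though in immune cells without replicate 4 the control lay below 10 of 10 CKO libraries (25.4 to 120 CPM), as it did for 15.1% of genes in these nuclei. The control had 0 UMIs in 12 astrocyte nuclei, which allows up to 118 CPM, so a difference from the CKO values of 0, 53.6 and 108 CPM was not detectable at this depth.

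*Il34* in GABAergic amacrine cells was at 7.39 CPM in the control and at 4.48, 8.56 and 12.4 CPM in CKO libraries, 7 of 10 above. In retinal ganglion cells it was at 13.2 CPM in the control and at 0, 12.4 and 17.3 CPM in CKO libraries, 4 of 11 above. In both neurons the control lay within the CKO range.

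In immune nuclei, the control was below all CKO libraries for both GM-CSF receptor genes, but within their range for *Csf1r*. Among the 8265 genes with at least 50 UMIs in immune nuclei, the control was below all 11 CKO libraries for 7.76% and above all 11 for 7.8%. The label mixes kinds of cells in unlike proportions: clusters with markers of retinal neurons, described below, held 84.0% of the immune UMIs of the control and 58.6% of those of CKO libraries, and their part in these levels was not tested. *Csf2ra* was at 43.7 CPM in the control (14.2 to 102, from 5 UMIs) and at 64.1, 99.9 and 209 CPM in CKO libraries. *Csf2rb* was at 17.5 CPM (2.12 to 63.1, from 2 UMIs) and at 28.3, 46.2 and 349 CPM. *Csf1r* was at 262 CPM (177 to 374, from 30 UMIs) and at 151, 225 and 1208 CPM, 4 of 11 above the control. CKO replicate 4 held the highest value of all 3 genes. In immune nuclei that also had a UMI of *Ptprc*, a gene of white blood cells, 10 of 11 CKO libraries were above the control for *Csf2rb* (26.7 CPM in the control, 24.1 CPM in the lowest CKO library) and 11 of 11 for *Csf2ra*. The exact permutation test over libraries gave p = 0.167 for *Csf2ra*, p = 0.167 for *Csf2rb* and p = 0.75 for *Csf1r*. Without replicate 4, *Csf2ra* (64.1 to 142 CPM) and *Csf2rb* (28.3 to 88.1 CPM) were above the control in 10 of 10 CKO libraries, with p = 0.0909 and p = 0.273 in the exact test (among all genes in these nuclei, the control was below all 10 for 15.1% and above all 10 for 9.33%). The mean difference for *Csf1r* turned from 53.6 to -35.7 CPM (3 of 10 above, p = 0.727 in the exact test), and in batch 1 to -80.1 CPM (0 of 3 above). Leaving out replicate 4 and keeping to batch 1 were chosen here after seeing the data.

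**Figure D2:**
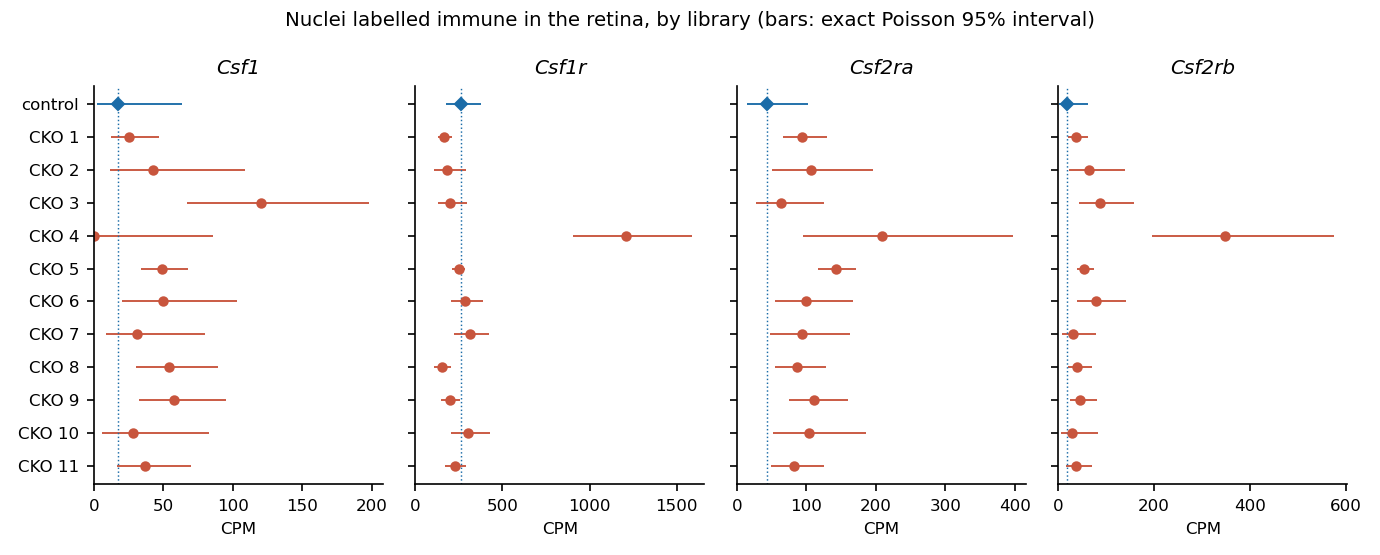
Level of *Csf1*, *Csf1r*, *Csf2ra* and *Csf2rb* in immune nuclei of each retina library, in CPM with exact Poisson 95% intervals; the dotted line is the control value. For *Csf2ra* and *Csf2rb* all 11 CKO libraries lie above the line, and for *Csf1r* 4 do.

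The share of immune nuclei with a UMI of *Csf1r* was 69.0% of 29 control nuclei (median 2892 UMIs) and 44.4% of 691 CKO nuclei (median 1773 UMIs). In GABAergic amacrine cells, which should lack the gene, it was 0.504% and 0.576% (medians 4722 and 4694 UMIs). For *Csf2ra* the shares in immune nuclei were 17.2% and 28.4%, against 15.2% and 15.6% in GABAergic amacrine cells, and for *Csf2rb* 6.90% and 15.5%, against 0% (of 993 nuclei, which allows up to 0.371%) and 0.153%. After each nucleus was thinned to 500 UMIs, which left out 1 control and 87 CKO immune nuclei, the shares in control and CKO immune nuclei were 21.4% and 16.2% for *Csf1r*, 7.14% and 7.78% for *Csf2ra*, and 0% (of 28 nuclei, which allows up to 12.3%) and 3.81% for *Csf2rb*. These shares pool nuclei over libraries and are given as a description, not as a test of genotype.

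Across all genes, edgeR was run on UMIs summed per library in each of 11 retinal cell types, with genes of low counts filtered out. Of the 5 genes, 19 combinations with a cell type passed the filter: *Csf2ra* in 10 types, *Il34* in 4, *Csf1* in 3, and *Csf1r* and *Csf2rb* in immune cells. With edgeR, 0 of 19 passed an adjusted p of 0.05 and 0 of 19 an unadjusted p of 0.05, and with DESeq2 both counts were also 0. Over all genes and types, 4 of 126041 tests passed with edgeR (0.00317%; 0.000793% with higher and 0.00238% with lower levels in CKO) and 1100 with DESeq2 (0.873%; 0.835% higher and 0.0373% lower). An unadjusted p below 0.05 was reached by 3.22% of tests with edgeR. A p above the threshold does not show that groups are alike. The smallest p of these 5 genes was that of *Csf2ra* in immune cells, with a log2 fold change of 1.196 (SE 0.63, unadjusted p = 0.0744, edgeR adjusted p = 0.997). *Csf2rb* in immune cells had 1.97 (SE 1.18), *Csf1* 0.92 in Müller glia (SE 0.64), 1.07 in horizontal cells (SE 0.83) and 1.30 in immune cells (SE 1.23), and *Csf1r* 0.15 in immune cells (SE 0.74). The sign for *Csf1r* turned under 6 settings, among them no covariate (-0.05), batch as a covariate (-0.62) and without replicate 4 (-0.25). Without replicate 4, the log2 fold change of *Csf2ra* in immune cells was 1.17 (SE 0.52). With a higher minimum of UMIs per library it was 1.18 (SE 0.54). Without the filter, that of *Csf2rb* in rods was -2.81 (SE 1.16), with 3 control UMIs. These values were picked by their unadjusted p in settings other than the main one, and are a description only. Astrocytes had 0 of the 5 genes past the filter.

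The 720 nuclei labelled immune fell into 13 clusters when the 5 genes and the rest of their pathway were left out of the clustering, and 7 clusters could be named from marker genes. The label also covers nuclei with markers of retinal neurons: a cluster of 70 nuclei was bipolar cell-like, and unnamed clusters of 82 and 46 nuclei had 7 of 8 rod markers and 6 of 7 amacrine cell markers raised. The cluster of 82 nuclei also had 6 raised markers of another cell class, and none of its raised rod markers was among its 10 leading genes. Of the 29 control nuclei, 14 were in the microglia-like cluster, 8 in the bipolar cell-like cluster, and the other 7 in these unnamed clusters of 82 and 46 nuclei. Together these 3 clusters held 51.7% of control and 26.5% of CKO immune nuclei.

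*Csf1r* was highest in the microglia-like cluster (103 nuclei), at 959 CPM (819 to 1117), with 26.1% of the *Csf1r* UMIs of immune nuclei. It was at 612 CPM in the macrophage-like cluster (105 nuclei), 487 CPM in the monocyte-like cluster (74 nuclei) and 77.8 CPM in the dendritic cell-like cluster (30 nuclei). T cell-like and B cell-like clusters had 0 UMIs, which allows up to 91.9 and 191 CPM. Within the microglia-like cluster, control nuclei were at 764 CPM (418 to 1282, from 14 UMIs) and CKO nuclei at 983 CPM (832 to 1153), and the intervals overlap. *Csf2ra* and *Csf2rb* had 1 control UMI each in this cluster (54.6 CPM), and 4 and 7 of 11 CKO libraries were above the control, with 6 and 4 CKO libraries at 0 UMIs. Over all CKO nuclei of the cluster, *Csf2ra* was at 91.1 CPM (49.8 to 153) and *Csf2rb* at 117 CPM (69.4 to 185), within the control intervals of 1.38 to 304 CPM. With 2 to 18 nuclei of this cluster in each CKO library, this comparison, chosen after seeing the data, is too shallow to separate or equate the groups.

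The GM-CSF receptor genes had another order. *Csf2ra* was at 568 CPM in the monocyte-like cluster (396 to 790), 292 CPM in the dendritic cell-like, 233 CPM in the macrophage-like and 87.2 CPM in the microglia-like cluster. *Csf2rb* was at 325 CPM in the monocyte-like cluster (198 to 501), 175 CPM in the dendritic cell-like, 161 CPM in the macrophage-like and 110.5 CPM in the microglia-like cluster. For both, the monocyte-like cluster was highest and the microglia-like cluster lowest of these 4, and no control nucleus was in the other 3.

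The cluster with the most *Csf1* UMIs among immune nuclei had no name. This cluster of 109 CKO nuclei, from 11 libraries, was led by *Gm6209*, *Vtcn1* and *Ptgr1*, had 1 raised microglia marker, and held 50 of the 120 *Csf1* UMIs (41.7%, 114 CPM, 84.4 to 150). The microglia-like, macrophage-like and monocyte-like clusters had 7, 3 and 1 *Csf1* UMIs, and the unnamed cluster of 46 nuclei with amacrine cell markers had 23. An unnamed cluster of 37 nuclei, led by genes of the cell cycle such as *Top2a* and with 6 raised microglia markers, was at 727 CPM of *Csf1r* and 196 CPM of *Csf1*, but its 14 *Csf1* UMIs lay in 3 nuclei. An unnamed cluster of 21 nuclei was at 212 CPM of *Csf1*, from 4 UMIs.

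**Figure D3:**
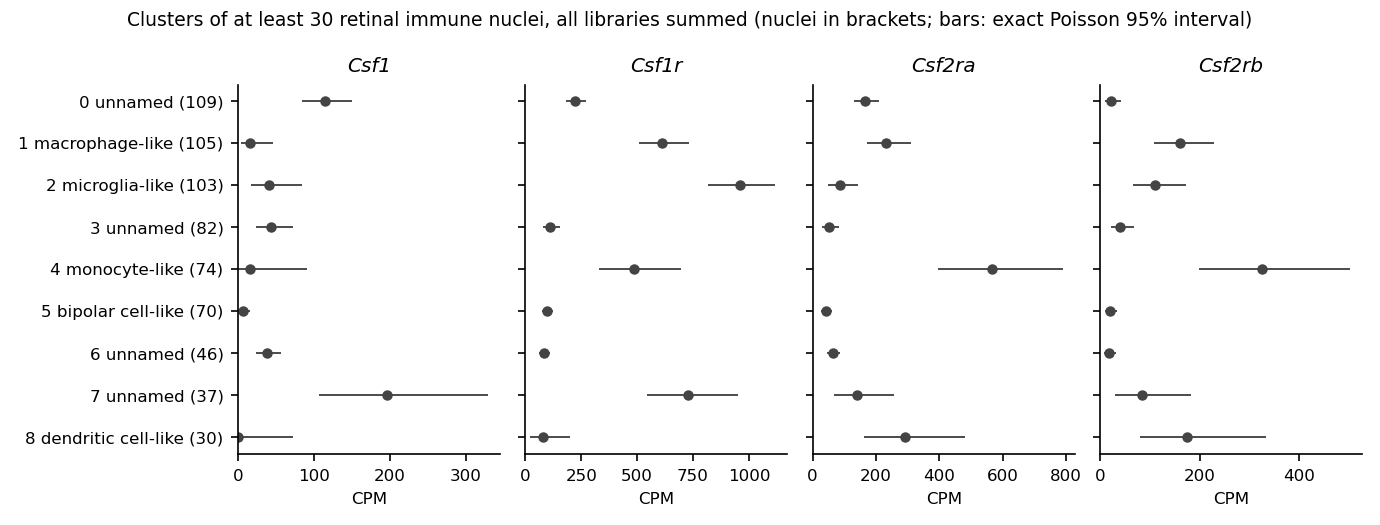
Level of *Csf1*, *Csf1r*, *Csf2ra* and *Csf2rb* in clusters of at least 30 retinal immune nuclei, in CPM with exact Poisson 95% intervals. *Csf1r* is highest in the microglia-like cluster, and *Csf2ra* and *Csf2rb* in the monocyte-like cluster.

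In brain vascular fragments, with both libraries pooled, the level of *Il34* was highest in pericytes and that of *Csf1* in oligodendrocytes, ECs and the label glia. *Il34* (2642 UMIs in both libraries) was at 1511 CPM in pericytes (1308 to 1737), 184 CPM in nuclei labelled glia, 168 CPM in vascular smooth muscle cells (vSMCs) and 90.4 CPM in ECs, which held 43.3% of its UMIs. *Csf1* (1495 UMIs) was at 82.5 CPM in oligodendrocytes, 67.2 CPM in ECs, with 56.9% of its UMIs, and 65.9 CPM in glia. It was at 39.9 CPM in vSMCs, 32.1 CPM in astrocytes and 29.6 CPM in the label CP_6, with 9.23% of its UMIs. The place of glia was that of the control library. In the CKO library glia was at 30.0 CPM of *Csf1* and 72.1 CPM of *Il34*, below vSMCs (42.6 and 170 CPM). Neurons have numbered labels (Glut for glutamatergic, GABA for GABAergic) and differed among them, with 20.1 CPM of *Il34* in Glut_0, which held 15.1% of its UMIs, and 1.59 CPM in Glut_1. The label glia was led by other markers than its name says: all 6 fibroblast markers had UMIs in both libraries, with a summed level of 5097 CPM in the control and 4936 CPM in the CKO library (*Col1a2* highest, 1602 and 1703 CPM), so it is called here by its label only.

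*Il34* UMIs of ECs lay almost all in nuclei that also had a UMI of a pericyte marker, as did most UMIs of all genes. In the control, 2113 of 2475 EC nuclei had one and held 558 of 558 *Il34* UMIs. In the CKO library, 2805 of 2944 held 585 of 586. The same nuclei held 5578666 of all 5801552 EC UMIs in the control and 6769215 of 6851854 in the CKO library. Their share of *Il34* UMIs is thus near their share of all UMIs. The other EC nuclei were shallower (medians of 504 and 453 UMIs, against 1651 and 1607), and the 0 UMIs of the control nuclei allow up to 16.6 CPM. All 8 pericyte markers had UMIs in ECs, with a summed level of 7809 CPM in the control and 6560 CPM in the CKO library (*Rgs5* highest, 5631 and 4831 CPM). Their part in the level of *Il34* in ECs was not tested.

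*Csf1r* (470 UMIs in brain) was at 1375 CPM in microglia (1149 to 1632), with 27.7% of its UMIs, 31.0 CPM in vSMCs and 14.9 CPM in ECs, with 40.0% of its UMIs. EC nuclei with a UMI of a microglia marker were at 32.6 CPM in the control and 29.2 CPM in the CKO library, and those without at 7.92 and 3.79 CPM, with median depths of 4051 and 3533.5 UMIs against 1062 and 1240.5 UMIs. In ECs, 9 of 10 microglia markers had UMIs in the control and 8 of 10 in the CKO library, with summed levels of 117 and 107 CPM, and their part in the level of *Csf1r* was not tested. *Csf2rb* (46 UMIs) was at 63.5 CPM in microglia, from 6 UMIs, and at 1.42 CPM in ECs. *Csf2ra* (1336 UMIs) lay mostly in neurons, at 22.8 CPM in Glut_0, 26.2 CPM in Glut_1 and 37.8 CPM in Glut_11, and at 42.3 CPM in microglia from 4 UMIs. The nuclei labelled microglia had UMIs of all 10 microglia and all 10 macrophage markers in the control, with summed levels of 7444 and 14101 CPM (*F13a1* highest of the macrophage markers, 5906 CPM), so microglia, too, is used here as a label only.

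Control and CKO brain libraries were compared by ratios (CKO over control) with exact conditional binomial 95% intervals, with no test, since there is 1 library per genotype and the difference has no replicate check. In whole libraries, *Csf1* was at 15.1 CPM in the control and 24.0 CPM in the CKO library, a ratio of 1.59 (1.43 to 1.76). *Il34* was at 33.9 and 30.8 CPM (0.910, 0.840 to 0.986), and *Csf1r* at 6.53 and 4.67 CPM (0.716, 0.585 to 0.873). *Csf2ra* was at 16.2 and 17.1 CPM (1.06, 0.947 to 1.18), and *Csf2rb* at 0.582 and 0.548 CPM (0.941, 0.485 to 1.77). Beyond counting error, *Csf1* was higher in the CKO library and *Il34* and *Csf1r* lower, but for *Csf1r* this rests on the microglia label, with 129 control and 11 CKO nuclei. With that label left out, chosen after seeing the data, *Csf1r* was at 4.02 and 4.51 CPM (1.12, 0.898 to 1.40), an interval that includes 1, and *Il34* had a ratio of 0.909 (0.839 to 0.984). ECs held 11.7% of control UMIs and 22.1% of CKO UMIs, so whole-library ratios also carry a difference in the mix of labels.

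Of 20 pairs of a gene and a label with at least 50 UMIs, 0 had a ratio of at least 2 and 3 a ratio of at most 0.5. Among all genes and labels, 3.11% of 108227 pairs had a ratio of at least 2 and 6.74% one of at most 0.5. *Csf1r* in microglia was at 1564 CPM in the control, from 125 UMIs in 129 nuclei, and at 342 CPM in the CKO library, from 5 UMIs in 11 nuclei (ratio 0.218, 0.0697 to 0.523). In that label 64.3% of 364 genes had a ratio of at most 0.5, and 15.1% a ratio of at least 2. The summed level of macrophage markers was 14101 CPM in control microglia and 820 CPM in CKO microglia (10 and 4 of 10 markers with UMIs, *F13a1* highest in both), and that of microglia markers 7444 and 1845 CPM (10 and 6 of 10), and whether these nuclei are the same kinds of cell was not tested. In the label glia, *Il34* was at 216 and 72.1 CPM (0.334, 0.230 to 0.471) and *Csf1* at 76.2 and 30.0 CPM (0.394, 0.215 to 0.675), where 8.6% of 6480 genes had a ratio of at most 0.5 and 6.08% one of at least 2. In nuclei with at least 1000 UMIs, the ratio was 0.614 (0.148 to 1.93) for *Csf1r* in microglia, 0.647 (0.319 to 1.21) for *Csf1* in glia and 0.476 for *Il34* in glia.

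*Csf1* in ECs was at 50.2 CPM in the control and 81.6 CPM in the CKO library (1.63, 1.41 to 1.88). The ratio was 1.80 (0.846 to 3.71) in EC nuclei without a pericyte marker, from 21 and 14 UMIs, and 1.72 in those without a microglia marker. *Il34* in ECs was at 96.2 and 85.5 CPM (0.889, 0.791 to 1.00), and *Csf1r* at 17.6 and 12.6 CPM (0.714, 0.529 to 0.961). *Csf1r* in EC nuclei without a microglia marker had a ratio of 0.478 (0.245 to 0.904), from 28 and 17 UMIs, and in those with one 0.895 (0.635 to 1.26), from 74 and 69 UMIs. In vSMCs *Csf1r* was at 27.8 and 50.3 CPM (1.81, 0.893 to 3.43), an interval that includes 1. The ratio was 3.17 (1.33 to 7.26) in vSMC nuclei without a microglia marker, from 16 and 11 UMIs, and 0.558 (0.0643 to 2.22) in those with one, from 27 and 2 UMIs. These splits of vSMC nuclei, and those of EC nuclei without a pericyte marker for *Csf1* and without a microglia marker for *Csf1r*, are below the minimum of 50 UMIs. All 6 fibroblast markers had UMIs in vSMCs, with a summed level of 2147 CPM in the control and 4165 CPM in the CKO library (*Col1a2* highest, 850.2 and 1413 CPM), and their part in the level of *Csf1r* was not tested.

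*Il34* in pericytes was at 1535 and 1194 CPM (0.778, 0.382 to 1.42), and in vSMCs at 167 and 170.3 CPM (1.02, 0.721 to 1.40), and both intervals include 1. The pericyte label had 201 control and 22 CKO nuclei. Its pericyte markers had summed levels of 22381 CPM (control) and 12157 CPM (CKO), and its EC markers 1732 and 3256 CPM. The pericyte ratio was 2.48 (0.891 to 6.06) in nuclei with a UMI of an EC marker and 0.474 (0.128 to 1.24) in those without. The part of these markers was not tested. In Glut_0 neurons *Il34* was at 16.5 and 25.1 CPM (1.52, 1.24 to 1.86). *Csf1* in astrocytes was at 26.4 and 47.5 CPM (1.80, 1.03 to 3.10). With TMM scaling that ratio was 1.52 (0.869 to 2.62), an interval that includes 1. It was 1.53 (0.795 to 2.85) in astrocyte nuclei without a microglia marker, from 31 and 17 UMIs. In those with at least 1000 UMIs it was 2.91 (1.48 to 5.52), from 30 and 16 UMIs. In oligodendrocytes *Csf1* was at 76.1 and 96.1 CPM (1.26, 0.926 to 1.71). *Csf2ra* was at 31.4 and 49.5 CPM in Glut_11 (1.58, 1.10 to 2.25) and at 29.03 and 15.4 CPM in GABA_9 (0.532, 0.319 to 0.855), a label in which 1.36% of 6374 genes had a ratio of at least 2 and 2.73% one of at most 0.5. Of 85 pairs with fewer than 50 UMIs, 6 had an interval that leaves out 1, each from no more than 18 UMIs. The same share over all genes is not given here, so this count is a description and not a result about these genes. *Csf1* in CP_8 (2.64 and 16.8 CPM) and *Csf1r* in astrocytes, Glut_21 and oligodendrocyte precursors were higher in the CKO library, and *Il34* in astrocytes and *Csf2ra* in oligodendrocyte precursors were lower. In astrocytes, 5 control and 6 CKO UMIs of *Csf1r* lay in the 38 and 27 nuclei with a UMI of a microglia marker. The other astrocyte nuclei had 1 and 2. Microglia markers in astrocytes had summed levels of 64.6 CPM (control) and 101 CPM (CKO), and their part in the level of *Csf1r* was not tested. Glut_5 and GABA_22 had 0 UMIs of all 5 genes.

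**Figure D4:**
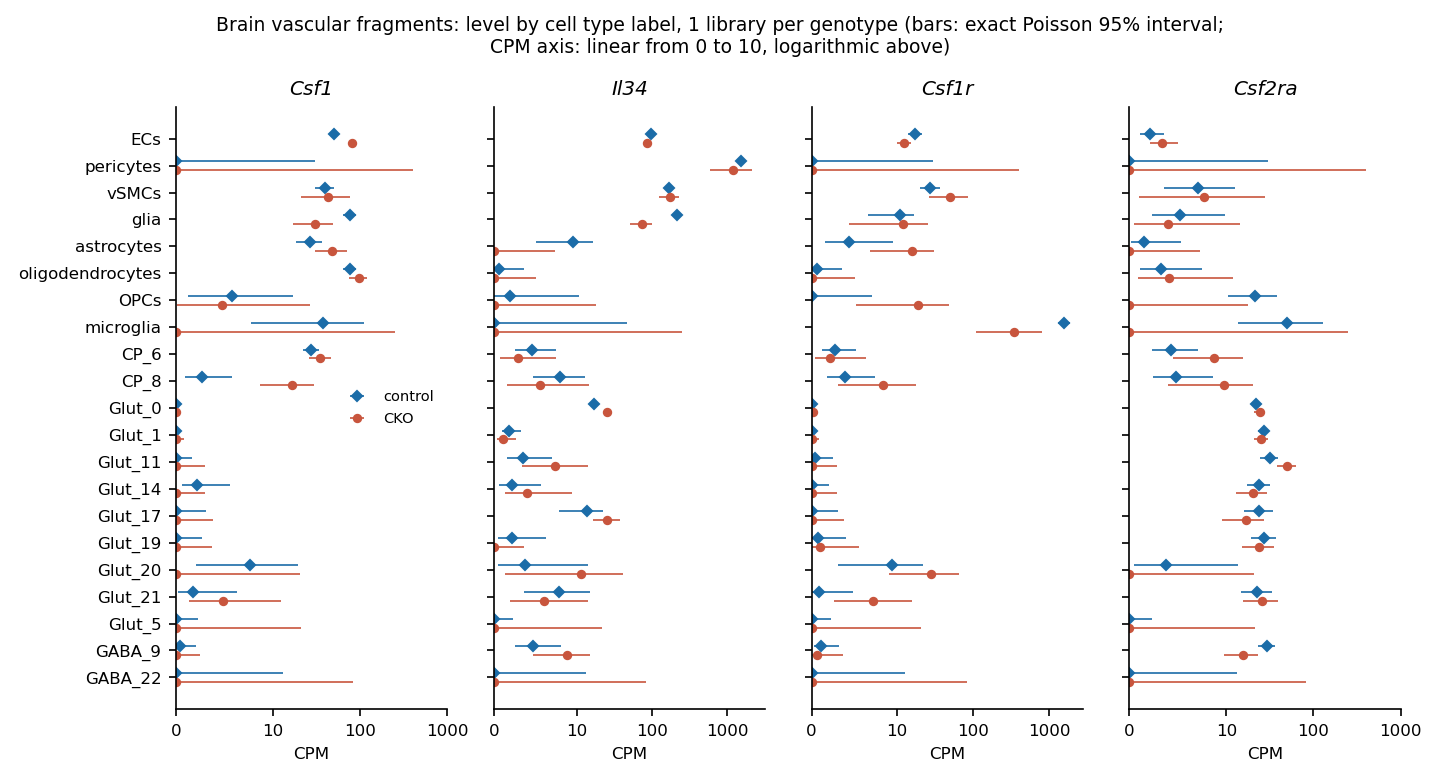
Level of *Csf1*, *Il34*, *Csf1r* and *Csf2ra* by cell type label in the control and CKO brain libraries, in CPM with exact Poisson 95% intervals, on an axis that is linear to 10 CPM and logarithmic above. *Il34* is highest in the label pericytes and *Csf1r* in the label microglia, and *Csf1* in ECs is at 50.2 CPM in the control and 81.6 CPM in the CKO library.

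The pathway list held 39 further genes, ligands, receptors, signal transducers and transcription factors that act with these 5, of which 38 were in the retina table and 36 in the brain table. In retina, 0 of 188 tests of these genes passed with edgeR, 12 (6.38%) had an unadjusted p below 0.05 (3.22% of all tests), and DESeq2 passed 2 of 188 (0.873% of all tests). Both were of *Stat3*, a transcription factor downstream of cytokine receptors, in rod bipolar cells (log2 fold change 1.59, DESeq2 adjusted p = 0.0402) and rods (2.22, DESeq2 adjusted p = 0.000563). The median log2 fold change of the list was 0.51 in Müller glia, where that of all genes was 0.03, 0.36 in immune cells (all genes 0.06) and -0.06 in retinal ganglion cells (all genes 0.00).

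In brain ECs, 27 of 36 list genes had at least 50 UMIs, of which 1 had a ratio of at least 2 and 1 of at most 0.5, against 9.45% and 3.9% of 11351 genes. *Kit*, the receptor of stem cell factor, was at 82.7 CPM in the control and 258 CPM in the CKO library (3.12, 2.82 to 3.46), and *Plcg2*, a phospholipase of immune receptor signaling, at 11.0 and 5.25 CPM (0.476, 0.307 to 0.727). The median log2 ratio in ECs was 0.08 for the list and 0.14 for all genes. In astrocytes, *Stat3* (2.70, 1.86 to 3.90) and *Stat5a* (2.04, 1.12 to 3.68) passed the ratio of 2, of 8 list genes with enough UMIs, against 3.73% of 3482 genes (11.6% at most 0.5). In the label microglia, with 3 such genes, *Ptprz1* had a ratio of 3.10, and *Inpp5d* and *Runx1* had ratios of 0.208 and 0.321, where 15.1% of 364 genes had a ratio of at least 2 and 64.3% one of at most 0.5. Astrocyte markers in this label had summed levels of 50.0 CPM in the control and 752 CPM in the CKO library (1 and 2 of 6 with UMIs). *Slc1a2* was the highest of them, at 50.0 and 615 CPM, and their part in these ratios was not tested. In pericytes *Pik3cd* had 54 control UMIs and 0 CKO UMIs, in a label where 36% of 425 genes had a ratio of at most 0.5 and 7.06% one of at least 2. Each of the other labels had at most 3 list genes past either ratio, with 3 of 8 at most 0.5 in oligodendrocytes (23% of 3901 genes, and 1.54% at least 2) and 3 of 9 in Glut_17 (5.84% of 4299 genes, and 0.465% at least 2).

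The genes most like each of these 5 over labels were found by Pearson's r of log2(CPM + 1), over 11 retinal labels and 17302 genes or 19 brain labels and 14447 genes. Brain microglia and pericytes, where *Csf1r* and *Il34* are highest, had fewer than 200000 UMIs and are not among the 19 labels, so the brain values describe likeness outside these sites. The labels of a tissue share their libraries and differ in depth, and r is given as a description. In retina, *Csf1* was most like *Lyn* (0.978), *Snu13*, *Mbd1*, *Rps29* and *Tomm7*, *Il34* most like *Lmo7* (0.977), *Pakap.2*, *Fhdc1*, *Gm36346* and *Islr*, and *Csf1r* most like *Pik3r6* (0.997), *Naip2*, *Myo1f* and *Slco2b1*. *Csf2ra* was most like *Trappc14* (0.979), *Hexa*, *Fam91a1*, *Nop14* and *Gusb*, and *Csf2rb* most like *Pik3cg* (0.995), *Slco2b1*, *Cd300c2* and *Trem2*. The genes named here for *Csf1r*, *Csf2ra* and *Csf2rb* all had their highest level in immune cells, and those for *Il34* in astrocytes. In brain, *Csf1* was most like *Plod1* (0.987), *Rnf135*, *Tmbim1* and *Nde1*, *Il34* most like *Btg3* (0.938), *Ism1*, *Postn*, *Ltbp4* and *Col6a2*, *Csf1r* most like *Zbed3* (0.960), *Ctss*, *Col1a1*, *Nfkbia* and *Trib2*, and *Csf2ra* most like *Tmem175* (0.927), *Anks3*, *Gga3*, *Clvs2* and *Gm28905*. *Csf2rb* had too few UMIs in brain.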

How the data were processed

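The authors deposited counts, as whole numbers of UMIs for each gene in each nucleus. They came from PIPseeker on a GRCm39 index, CellBender took out background and SOLO doublets, and mixed nuclei were removed by hand before deposit. The submitters' processing notes name mm10 and Seurat. Cell type, batch and kit are the authors' labels and other columns deposited beside the counts; the deposited UMAP coordinates were not used. Gene names differ between batches, and all 5 genes have UMIs in every batch.

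Libraries were grouped by their labels, and tests of control against CKO used libraries, not nuclei, as replicates. Intervals of shares of nuclei are exact binomial over pooled nuclei. Labels with fewer than 20000 UMIs in a library were left out of tests over libraries. Cell types were tested with edgeR 4.0.16 (quasi-likelihood test, TMM, filterByExpr, kit as a covariate, Benjamini-Hochberg adjustment over all genes of a type), with DESeq2 1.42.0 as an alternative, in R 4.3.3. The spread of the single control has to be taken from the CKO libraries. Clusters of immune nuclei are from leidenalg 0.10.2 within scanpy 1.11.5 (16500 genes, 2000 variable genes, 20 principal components, 15 neighbors, resolution 1). A named cluster needed 3 raised markers (fold of at least 2, in at least 5% of nuclei) and 1 of them among its 10 leading genes, which needed at least 20 UMIs in the cluster. That minimum was set after a first clustering had been seen. Levels, intervals and exact tests were computed in Python 3.11.15 with scipy 1.17.1, pandas 2.3.3 and numpy 2.4.6, and figures drawn with matplotlib 3.10.9.

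The genes named are the 5 genes, list genes past a threshold in a retinal type or in brain ECs, microglia, astrocytes or pericytes, the 5 genes most like each, *Tgfbr1*, sex-linked genes and markers. *Gm6209*, *Vtcn1*, *Ptgr1*, *Top2a* and genes that overlap or neighbor the 5 were named after their values were seen. Items withheld for evaluation are left out of these names. The genes and lists were chosen with earlier results of these data known. Alternatives were other scalings, filters, covariates, depths, batches, clusterings and libraries left out.

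Each tissue has a single control library, so no permutation p of control against CKO retinas can fall below 0.0833, and the brain comparison has no replicates. The control retina belongs to batch 1, and sex, batch and kit differ among CKO libraries. Levels of 29 control immune nuclei rest on few UMIs, and a difference of the size seen could be missed. Sums over a label mix changes in the kinds of cells with changes within cells, and RNA of other cells in a droplet cannot be told apart from a cell's own. UMIs measure nuclear RNA, not protein, and no measurement of ligand binding was used here.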

Additional observations from a re-analysis of the deposited data

Results flagged for a closer look

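*Il34* in Müller glia was at 24.6 CPM in CKO replicate 6, and the next of the 10 CKO libraries was at 5.71 CPM. In rods, *Il34* was at 2.11 CPM in CKO replicate 10, and the next CKO library was at 1.09 CPM. In both cases a single library lay far from the rest of its group. Of 15 groups of libraries looked at in this way, 2 had such a library, and chance gives about 5% of groups. Immune cells and retinal ganglion cells were not among these groups, so CKO replicate 4 in immune nuclei (1208 CPM of *Csf1r*) was not looked at in this way.

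Whole-library *Csf1r* was above the control in 11 of 11 CKO retina libraries, while the ratio of CKO to control was 0.716 in brain. Without the brain microglia label, which has 129 control and 11 CKO nuclei, the ratio was 1.12 (0.898 to 1.40), so the direction of the whole brain library rests on that label. Among other labels, *Csf1r* was lower in CKO ECs (17.6 and 12.6 CPM in control and CKO, ratio 0.714, 0.529 to 0.961). In vSMCs it was at 27.8 and 50.3 CPM (1.81, 0.893 to 3.43), an interval that includes 1. Whole-library *Csf2rb* was likewise above the control in 11 of 11 CKO retina libraries, with a ratio of 0.941 in brain, whose interval (0.485 to 1.77) includes 1, so no direction can be given there. For *Csf1r* the difference between the tissues was not tested.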

How the results depend on the processing

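No paired analysis was possible because the control groups have 1 library each and share fewer than 2 replicate numbers with the CKO groups. The mean difference between CKO and control retinas in whole-library *Il34* (-0.222 CPM) was 0.0915 CPM without CKO replicate 4, 0.120 CPM without replicates 4 and 5, 0.193 CPM in batch 1 and 0.357 CPM as a mean over nuclei. That of *Csf2ra* (9.77 CPM) was -0.177 CPM without replicate 4 and -0.126 CPM without replicates 4 and 5. In immune nuclei, that of *Csf1r* (53.6 CPM) was -35.7 CPM without replicate 4 and -80.1 CPM in batch 1. For these values of *Il34*, *Csf2ra* and *Csf1r* the cause was not tested. The share of immune *Csf1r* UMIs in microglia-like clusters was 30.4% at a clustering resolution of 0.5, against 26.1% at a resolution of 1, and the cause was not tested.

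The number of tests of a gene in a retinal cell type that passed was 4 with edgeR, 1100 with DESeq2, 30 without the filter, 8 without a covariate, 7 with batch as a covariate, 71 in batch 1 and 14 with genes of both annotations only (chosen after seeing the data), and 4 to 13 with each CKO library left out. DESeq2 passed 2 tests of the pathway list, both of *Stat3*. Brain pairs with a ratio of at most 0.5 were 3 of 20, 1 of 16 in nuclei with at least 1000 UMIs, 4 of 20 with TMM scaling, 4 of 20 as a mean over nuclei and 4 of 15 in nuclei without a microglia marker. For these counts the cause was not tested. The share over all genes is not given for the brain pairs under a changed setting. Those brain counts are thus a description and not a result about these genes. Of the comparisons with a setting changed, the main results were the same in 131, moved in 10 and turned in 8, and further values were the same in 444 and moved in 8. That count holds edgeR fold changes that pass no threshold as the same whatever their sign: 16 turned sign, of which 6 are of *Csf1r* in immune cells and 1 is *Il34* in Müller glia (0.62, and -1.86 with batch as a covariate). Astrocytes could not be fitted in batch 1 or under the highest minimum of UMIs per library. A single control library, 29 control immune nuclei and 11 CKO brain microglia limit what can be detected here.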
